A study of Mus musculus with 60 samples.

Results

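The transcripts described are those of the SR proteins and the heterogeneous nuclear ribonucleoproteins (hnRNPs), 2 large families of RNA-binding proteins that help to decide which exons enter a messenger RNA. They were taken by gene symbol, as every row of the expression table named Srsf or Sfrs followed by a number, or named Hnrnp. The rule itself used no expression values, but these families were chosen with earlier results of these data known. The rule found 31 of 24508 gene symbols, 11 SR genes and 20 hnRNP genes, all SR genes under the newer name Srsf. RNA was sequenced from frozen hippocampal tissue of wild-type (WT) and R6/1 mice at an age of 30 weeks, with 9 biological replicates of each genotype that the labels call independent. The R6/1 transgene is exon 1 of human huntingtin with a long CAG repeat; it models Huntington's disease by making a fragment of the mutant protein beside the whole mouse protein. Both genotypes share a mixed background of CBA and C57BL/6 in equal parts, and the labels name no drug or other agent in either. Lamin B1 ChIP-seq domains of the same tissue, from replicates that were each a pool of 5 mice, served only to place the genes.

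SR proteins bind exonic enhancers through RNA recognition motifs and recruit the U1 and U2 snRNPs through a tail rich in arginine and serine, which the SRPK and CLK kinases phosphorylate. The hnRNPs coat nascent transcripts and often oppose SR proteins by silencing exons or blocking splice sites, and several also steer the transport and decay of messenger RNA. Many genes of both families hold their own level in check by splicing in "poison" exons that send the transcript to nonsense-mediated decay. In neurons these proteins set the splicing of receptors, channels and the microtubule protein tau, and Srsf6 is known to bind the CAG repeat of huntingtin RNA and to favour a short transcript of its first exon.

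In R6/1 hippocampus, 7 of the 31 transcripts were higher than in WT, 5 were lower, and 19 did not pass the test. The transcripts that rose were Srsf12, Srsf10, Hnrnph2, Hnrnpab, Hnrnpr, Srsf1 and Hnrnph1. Those that fell were Srsf9, Hnrnpdl, Hnrnpa1, Srsf11 and Hnrnpa2b1. Changes were small: the mean level in RPKM (reads per kilobase of transcript, scaled for depth) rose by at most 31.0%, for Srsf12, and fell by 24.0% at most, for Srsf9. The test was limma on log2(RPKM + 0.5) with a Benjamini-Hochberg adjusted p under 0.05, over the 14446 genes whose mean reached 0.5 RPKM, and all 31 were tested. At an adjusted p under 0.01, which 36.2% of all genes passed, 6 of the 31 were higher and 1 was lower. Of all genes tested, 48.3% passed in either direction, 24.8% as higher and 23.5% as lower, so the share of called SR and hnRNP transcripts (38.7%) was not above that background. The split depended on how libraries were scaled. With libraries scaled to their own read totals, 15 of the 31 were higher and 1, Srsf9, was lower. Under that scaling 5110 of all 14446 genes tested were higher and 2526 lower. Of the calls over all genes, the share that were higher moved from 51.4% to 66.9%.

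The libraries held between 12299434 and 16736544 reads on genes, of which the 31 transcripts took between 0.371% and 0.429% in WT and between 0.400% and 0.459% in R6/1. Mouse Htt was at 17.6 ± 1.69 RPKM (WT) and 18.3 ± 1.72 RPKM (R6/1; SD, n = 9 each; limma adjusted p 0.474), which does not check the labels, because the transgene is a fragment of the human gene. Markers of the hippocampus were present and lower in R6/1. All 6 dentate granule markers passed the test as lower, and their summed level ranged from 63.9 to 110.9 RPKM in WT and from 29.6 to 36.4 RPKM in R6/1. All 5 CA1 and all 5 CA3 pyramidal markers were also lower, with summed levels from 158.6 to 222.7 RPKM against 118.3 to 135.0 RPKM for CA1 and from 84.4 to 149.5 RPKM against 52.3 to 64.5 RPKM for CA3. Of the glial markers, 6 of 6 for astrocytes, 4 of 6 for oligodendrocytes and 3 of 6 for microglia were lower, 6 of 7 inhibitory neuron markers were lower, and endothelial markers had 1 higher and 1 lower of 6. In bulk tissue, fewer cells of a type and less RNA per cell cannot be told apart, and the part of cell makeup in the changes below was not tested. Markers of the choroid plexus, which lies beside the hippocampus, had 0 of 6 called. Their summed levels ran from 25.6 to 1075.5 RPKM in WT and from 38.8 to 1742.8 RPKM in R6/1. With the level of Ttr as a covariate, 7 of the 31 transcripts were higher and 5 lower, while 48.7% of all genes tested were called. WT replicate 1 stood apart and held the highest or lowest WT value for 37.3% of the tested genes, against 16.9% to 25.9% for the other WT libraries, and for 14 of the 31 transcripts. Without replicate 1 of both genotypes the counts were again 7 higher and 5 lower, while 48.2% of all genes tested were called. In that fit Hnrnpa2b1 was no longer called (log2 fold change -0.11, limma adjusted p 0.0688) and Srsf5 was called instead (log2 fold change -0.28, limma adjusted p 0.00397).

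The sequences just before the transcription starts of the 8 called genes with the largest log2 fold changes in size are shown to let a reader compare how their promoters are built. Each is the 100 bases that end 1 base before the start, from RefSeq on build GRCm38.p6, written 5′ to 3′ on the gene's strand. Capitals mark matches, on either strand, to the GC box GGGCGG, bound by Sp factors, or to the CCAAT box CCAAT, bound by NF-Y. The first 5 genes rose in R6/1 and the last 3 fell.
Srsf12, chr4:33209172-33209271, plus strand: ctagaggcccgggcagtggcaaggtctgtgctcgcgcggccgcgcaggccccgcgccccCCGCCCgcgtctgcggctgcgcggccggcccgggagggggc
Srsf10, chr4:135855971-135856070, plus strand: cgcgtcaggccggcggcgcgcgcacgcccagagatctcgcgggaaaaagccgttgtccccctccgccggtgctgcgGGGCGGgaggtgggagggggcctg
Hnrnph2, chrX:134601079-134601178, plus strand: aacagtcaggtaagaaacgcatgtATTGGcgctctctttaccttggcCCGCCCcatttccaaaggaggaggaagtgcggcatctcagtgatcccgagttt
Hnrnpab, chr11:51606882-51606981, minus strand: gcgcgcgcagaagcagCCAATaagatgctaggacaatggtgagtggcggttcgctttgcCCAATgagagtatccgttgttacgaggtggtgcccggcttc
Hnrnpr, chr4:136310842-136310941, plus strand: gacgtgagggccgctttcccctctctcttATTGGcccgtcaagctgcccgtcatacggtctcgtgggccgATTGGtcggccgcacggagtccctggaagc
Srsf9, chr5:115327077-115327176, plus strand: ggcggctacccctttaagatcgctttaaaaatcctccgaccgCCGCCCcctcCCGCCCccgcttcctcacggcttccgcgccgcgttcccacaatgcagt
Hnrnpdl, chr5:100039223-100039322, minus strand: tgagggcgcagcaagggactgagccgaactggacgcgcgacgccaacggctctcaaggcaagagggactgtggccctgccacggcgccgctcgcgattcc
Hnrnpa1, chr15:103240297-103240396, plus strand: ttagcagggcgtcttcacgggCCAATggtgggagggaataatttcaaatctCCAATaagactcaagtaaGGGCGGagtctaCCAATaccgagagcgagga

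Srsf12, Srsf10 and Srsf9 held only GC boxes in the stretch shown, Hnrnpab and Hnrnpr held a pair of CCAAT boxes each, and Hnrnph2 and Hnrnpa1 held boxes of both kinds. The Hnrnpdl stretch held neither. In windows of 300 bases (250 before to 50 after the start), 29 of the 31 genes had a RefSeq promoter. The GC box occurred in 23 of them (79.3%), against 63.8% of 10908 tested genes and 35.9% of all 27025 promoters. CCAAT occurred in 16 (55.2%), against 38.4% of tested genes and 38.0% of all promoters. The ETS core CCGGAA occurred in 12 (41.4%), against 26.2% and 15.2%. TATAAA occurred in 4 (13.8%), against 7.04% and 14.2%, and the E-box CACGTG in 4 (13.8%), against 10.1% and 7.24%. The cAMP response element TGACGTCA and the NRF1 site were found in 0 of the 29, against 3.25% and 1.96% of tested genes. Median GC content was 68.3%, against 61% for tested genes and 52.7% for all promoters, and the median number of CpG was 31, against 20 and 7. The motifs were searched on both strands, GGGCGG and CCGGAA can each share bases with other GC-rich words, and a match is a description of letters only.

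The 31 transcripts lay high in the WT transcriptome. Of them 24 had a mean above 20 RPKM, a level that 25.4% of tested genes reached, and their median was 32.8 RPKM against 8.27 RPKM for tested genes. Hnrnpk was the most abundant at 134.6 ± 6.90 RPKM (SD, n = 9), and its WT range did not overlap that of the next, Hnrnpa2b1. After Hnrnpa2b1 came Hnrnpu, Srsf5, Hnrnph1, Hnrnpl and Hnrnpc, whose neighbouring ranges overlapped. At the low end stood Srsf12, Srsf4, Hnrnph3 and Hnrnpa1, the 4 transcripts below the tested median. Of the 30 pairs of neighbours in this order, 23 had overlapping WT ranges, so most of the order is not resolved by these libraries. Replicates of 1 genotype differed little: the median SD on the log2 scale was 0.098 in WT and 0.11 in R6/1, against 0.12 and 0.11 for 10206 tested genes in the same range of level.

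**Figure D1:**
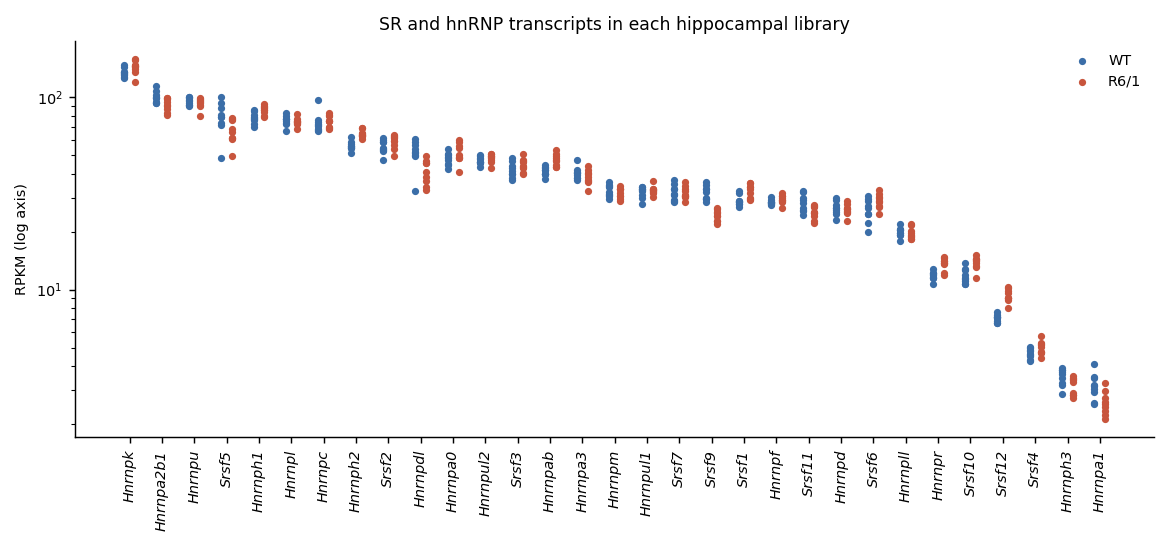
RPKM of each SR and hnRNP transcript in each of 9 WT and 9 R6/1 libraries (points), on a log axis, ordered by WT mean. Levels run from Hnrnpk (WT mean 134.6 RPKM) to Hnrnpa1 (3.17 RPKM), and the genotypes separate fully for Srsf9 and Srsf12 only.

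Among the classical SR genes, Srsf9 fell, Srsf1 rose and the other 6 did not pass. Srsf9 (chromosome 5, 115777186 to 115783089, plus strand; build NCBIM37 for all gene positions) encodes a short SR protein that takes part in 5′ splice site choice. Its WT libraries ranged from 28.5 to 36.0 RPKM with a median of 32.1, and its R6/1 libraries from 21.9 to 26.5 RPKM with a median of 24.2. Every R6/1 library lay below every WT library. The means were 32.0 ± 2.68 RPKM (WT) and 24.3 ± 1.63 RPKM (R6/1; SD, n = 9 each), or -0.39 ± 0.050 (SE) as a log2 fold change (95% interval -0.49 to -0.28, limma adjusted p 2.62e-06). Between 408 and 726 reads stood behind each value. Such a complete separation was seen for 11.9% of all tested genes and for 2 of the 31 transcripts here, Srsf9 and Srsf12. With library totals it was also seen for Hnrnpab, Hnrnph2 and Hnrnpr, but the share of all genes under that scaling is not given here. The authors' deposited table gave Srsf9 a log2 fold change of -0.39 with an adjusted p of 3.69e-11.

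Srsf1 (chromosome 11, 87860875 to 87867257, plus strand), the founding SR protein, which also acts in translation and nonsense-mediated decay, ranged from 27.0 to 32.6 RPKM in WT (median 28.7) and from 29.1 to 36.0 RPKM in R6/1 (median 33.3). All 9 R6/1 libraries were above the WT median, but the ranges overlapped. The means were 29.1 ± 1.84 and 32.6 ± 2.61 RPKM (SD, n = 9 each), or 0.16 ± 0.047 (SE) as a log2 fold change (limma adjusted p 0.00873). Srsf1 shares bases with the predicted gene Gm11508 on the opposite strand, and whether the authors' counting used the strand is not given in the sources used here.

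Srsf6, the SR protein with a known link to huntingtin RNA, ranged from 19.9 to 30.5 RPKM in WT (median 26.6) and from 24.8 to 33.0 RPKM in R6/1 (median 28.7). The 2 ranges shared most of their width, although 8 of 9 R6/1 libraries were above the WT median. Its log2 fold change was 0.16 (SE 0.072, 95% interval 0.0094 to 0.31), with a limma adjusted p of 0.0734. It passed in 5 of 32 alternative fits, 3 of which left out a library: WT replicate 7 (limma adjusted p 0.0450), WT replicate 9 (limma adjusted p 0.0346) or R6/1 replicate 1 (limma adjusted p 0.0396).

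Srsf5, an SR protein whose transcript responds quickly to growth signals, varied more between replicates than the other SR transcripts. Its WT libraries ran from 48.1 to 99.6 RPKM (median 79.2) and its R6/1 libraries from 49.6 to 77.5 RPKM (median 65.8). The lowest value in each genotype was replicate 1. All 9 R6/1 libraries lay below the WT median, and the log2 fold change of -0.24 (SE 0.11, 95% interval -0.47 to -0.012) did not pass (limma adjusted p 0.0757). The authors' deposited table listed Srsf5 as lower, with a log2 fold change of -0.24 and an adjusted p of 0.0436. For the other 30 transcripts the call in the authors' deposited table was the same. Without WT replicate 1 Srsf5 was also called here (log2 fold change -0.33, limma adjusted p 0.00290). Of the Srsf5 transcript, 86.5% has a copy of at least 97% identity elsewhere in the genome, so its reads could be shared.

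Srsf2, which binds exonic enhancers and also helps release paused RNA polymerase, ranged from 47.2 to 61.4 RPKM in WT (median 54.1) and from 49.7 to 63.9 RPKM in R6/1 (median 59.4). Its ranges overlapped almost wholly, and the log2 fold change was 0.081 (SE 0.053, 95% interval -0.030 to 0.19, limma adjusted p 0.220). Srsf3, the smallest SR protein, measured 42.0 ± 3.82 RPKM (WT) and 44.4 ± 3.43 RPKM (R6/1; SD, n = 9 each; limma adjusted p 0.220). Srsf4 measured 4.67 ± 0.281 and 5.00 ± 0.386 RPKM (SD, n = 9 each; limma adjusted p 0.142). Srsf7, a partner of Srsf3 in messenger RNA export, was at 32.0 RPKM in both genotypes, with a log2 fold change of 0.0022 (95% interval -0.11 to 0.12, limma adjusted p 0.978).

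All 3 of the remaining SR genes, which lie outside the classical group, passed the test, where 48.3% of all genes tested passed. Srsf12 (chromosome 4, 33295966 to 33320315, plus strand), whose protein can oppose the classical SR proteins, ranged from 6.71 to 7.67 RPKM in WT (median 7.20) and from 8.01 to 10.3 RPKM in R6/1 (median 9.08). Every R6/1 library lay above every WT library. The means were 7.12 ± 0.318 and 9.32 ± 0.715 RPKM (SD, n = 9 each), or 0.36 ± 0.045 (SE) as a log2 fold change (95% interval 0.27 to 0.46, limma adjusted p 1.54e-06), with 251 to 530 reads behind each value. The authors' deposited table gave Srsf12 a log2 fold change of 0.39 with an adjusted p of 2.03e-11.

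Srsf10 (chromosome 4, 135411662 to 135425823, plus strand), a repressor of splicing when it is dephosphorylated in heat shock or mitosis, ranged from 10.7 to 13.7 RPKM in WT (median 11.5) and from 11.6 to 15.1 RPKM in R6/1 (median 14.2). The ranges overlapped, yet all 9 R6/1 libraries exceeded the WT median. The means were 11.8 ± 1.03 and 13.8 ± 1.04 RPKM (SD, n = 9 each), or 0.22 ± 0.053 (SE) as a log2 fold change (limma adjusted p 0.00224). A copy of at least 97% identity covers 60.1% of the Srsf10 transcript.

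Srsf11 (chromosome 3, 157673437 to 157699603, minus strand), which contacts the branch-point machinery and promotes neuronal microexons, ranged from 24.4 to 32.7 RPKM in WT (median 28.2) and from 22.2 to 27.4 RPKM in R6/1 (median 25.0). All 9 R6/1 libraries were below the WT median and the ranges overlapped. The means were 28.3 ± 2.96 and 25.1 ± 1.85 RPKM (SD, n = 9 each), or -0.17 ± 0.058 (SE) as a log2 fold change (limma adjusted p 0.0208), and the call was lost with libraries scaled to their own totals (log2 fold change -0.096, limma adjusted p 0.230).

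**Figure D2:**
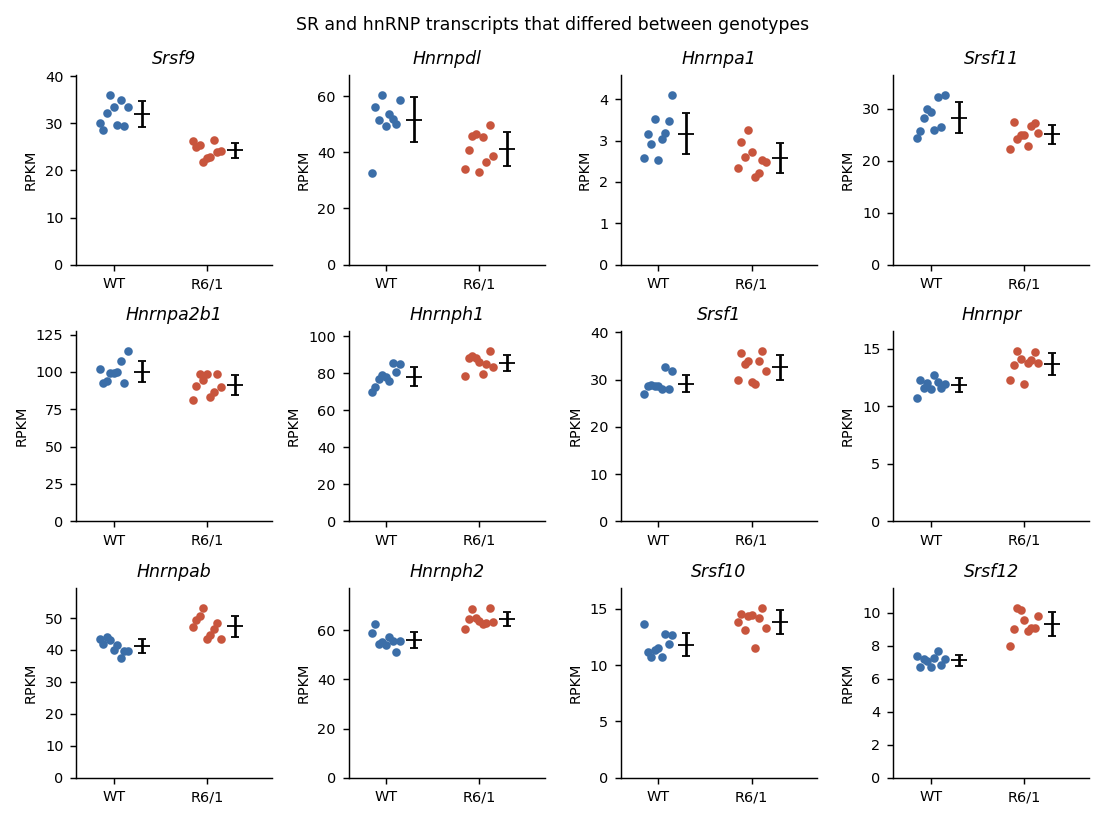
RPKM in each library for the 12 transcripts that passed the test (points; bars give mean and SD, n = 9 per genotype; every axis starts at 0). Srsf9 and Srsf12 have no overlap between genotypes, and the other 10 overlap.

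Of the 4 hnRNP A/B genes, 2 fell and 0 rose, where 23.5% of all genes tested fell and 24.8% rose. Hnrnpa2b1 (chromosome 6, 51410433 to 51419893, minus strand), which silences exons and carries transcripts into dendrites, ranged from 92.8 to 113.7 RPKM in WT (median 99.4) and from 80.9 to 98.8 RPKM in R6/1 (median 90.6). All R6/1 libraries were below the WT median, with overlapping ranges. The means were 100.2 ± 6.98 and 91.3 ± 6.82 RPKM (SD, n = 9 each), or -0.13 ± 0.048 (SE) as a log2 fold change (limma adjusted p 0.0245). The call was lost in 7 of 32 alternative fits. Among them were quantile normalization (log2 fold change -0.070, limma adjusted p 0.316) and leaving out WT replicate 9 (limma adjusted p 0.0517), R6/1 replicate 1 (limma adjusted p 0.0507) or R6/1 replicate 6 (limma adjusted p 0.0505).

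Hnrnpa1 (chromosome 15, 103070945 to 103074445, plus strand), the best known exon silencer of the family, was listed at 2.54 to 4.11 RPKM in WT (median 3.16) and at 2.13 to 3.26 RPKM in R6/1 (median 2.53). The ranges overlapped, with 8 of 9 R6/1 libraries below the WT median. The means were 3.17 ± 0.488 and 2.58 ± 0.363 RPKM (SD, n = 9 each), or -0.25 ± 0.083 (SE) as a log2 fold change (limma adjusted p 0.0175), from 67 to 124 reads. The whole Hnrnpa1 transcript (100%) has copies of at least 97% identity elsewhere, 5 of them covering more than 50% of it, so both its low level and its change are uncertain. The call was lost under quantile normalization (limma adjusted p 0.0523) and with library totals (limma adjusted p 0.0726). Hnrnpa0 measured 47.9 ± 3.63 RPKM (WT) and 51.7 ± 5.93 RPKM (R6/1; SD, n = 9 each; limma adjusted p 0.175). It passed without R6/1 replicate 5 (log2 fold change 0.15, limma adjusted p 0.0322) and with library totals (log2 fold change 0.18, limma adjusted p 0.0156). Hnrnpa3, of which 99.9% is copied elsewhere, measured 40.4 ± 2.89 and 38.5 ± 3.37 RPKM (SD, n = 9 each; limma adjusted p 0.293).

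The related Hnrnpab and Hnrnpdl moved in opposite directions. Hnrnpab (chromosome 11, 51412372 to 51420349, minus strand), which binds transport signals in neuronal messenger RNA, ranged from 37.6 to 44.2 RPKM in WT (median 41.6) and from 43.4 to 53.1 RPKM in R6/1 (median 47.3). Only the top of the WT range reached the bottom of the R6/1 range. The means were 41.3 ± 2.13 and 47.4 ± 3.34 RPKM (SD, n = 9 each), or 0.20 ± 0.042 (SE) as a log2 fold change (limma adjusted p 0.000612). Hnrnpab overlaps Agxt2l2 on the opposite strand.

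Hnrnpdl (chromosome 5, 100462596 to 100468683, minus strand), a paralogue of Hnrnpd that controls its own transcript by alternative splicing, ranged from 32.7 to 60.4 RPKM in WT (median 51.9) and from 33.0 to 49.6 RPKM in R6/1 (median 40.9). The lowest WT value was that of replicate 1, and the next WT library was at 49.2 RPKM. The means were 51.5 ± 8.04 and 41.1 ± 5.96 RPKM (SD, n = 9 each), or -0.32 ± 0.10 (SE) as a log2 fold change (limma adjusted p 0.0130), and with library totals the call was lost (log2 fold change -0.24, limma adjusted p 0.0570). Hnrnpd itself, known as AUF1 for its role in the decay of AU-rich transcripts, lies on the same strand of the same chromosome and measured 26.5 ± 2.20 RPKM (WT) and 26.0 ± 1.74 RPKM (R6/1; SD, n = 9 each; limma adjusted p 0.718).

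**Figure D3:**
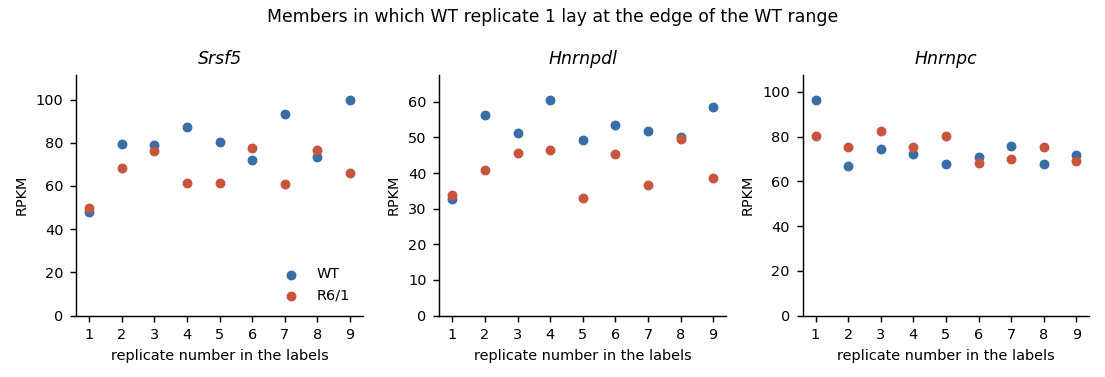
RPKM of Srsf5, Hnrnpdl and Hnrnpc by the replicate number in the labels (points, WT and R6/1; axes start at 0). WT replicate 1 is the lowest WT library for Srsf5 (48.1 RPKM) and Hnrnpdl (32.7 RPKM) and the highest for Hnrnpc (96.2 RPKM).

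Hnrnpc, Hnrnpm and Hnrnpk did not pass. Hnrnpk, a KH-domain protein that binds C-rich RNA and DNA, ranged from 125.8 to 147.4 RPKM in WT (median 133.3) and from 119.6 to 158.1 RPKM in R6/1 (median 145.4). The WT range lay inside the R6/1 range. Its log2 fold change was 0.089 ± 0.046 (SE; 95% interval -0.0072 to 0.18, limma adjusted p 0.119). It passed without R6/1 replicate 5, its lowest library (log2 fold change 0.12, limma adjusted p 0.0129), and under quantile normalization (log2 fold change 0.17, limma adjusted p 0.00263). With library totals it passed too (log2 fold change 0.16, limma adjusted p 0.00437). Hnrnpc, which coats uridine tracts of nascent RNA and masks cryptic exons, ranged from 66.7 to 96.2 RPKM in WT (median 71.5) and from 68.2 to 82.3 RPKM in R6/1 (median 75.3), with the highest value in WT replicate 1 and a limma adjusted p of 0.685. Hnrnpm measured 32.8 ± 2.32 and 31.7 ± 1.97 RPKM (SD, n = 9 each; limma adjusted p 0.400).

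In the F/H group, whose proteins bind runs of guanine near splice sites, 2 of 4 rose. Over all genes tested, 24.8% rose and 23.5% fell. Hnrnph2 (chromosome X, 131135718 to 131141599, plus strand) ranged from 51.2 to 62.3 RPKM in WT (median 55.6) and from 60.4 to 69.0 RPKM in R6/1 (median 63.6). The ranges met only at their ends. The means were 56.1 ± 3.16 and 64.5 ± 2.84 RPKM (SD, n = 9 each), or 0.20 ± 0.036 (SE) as a log2 fold change (95% interval 0.13 to 0.28, limma adjusted p 0.000113). Hnrnph1 (chromosome 11, 50190492 to 50200030, plus strand) ranged from 69.7 to 85.7 RPKM in WT (median 77.8) and from 78.5 to 91.9 RPKM in R6/1 (median 86.0), with overlap. Its log2 fold change was 0.13 ± 0.041 (SE; limma adjusted p 0.0129), and for both genes all 9 R6/1 libraries were above the WT median. Hnrnpf measured 28.5 ± 0.804 and 29.5 ± 1.46 RPKM (SD, n = 9 each; limma adjusted p 0.238). Hnrnph3 measured 3.53 ± 0.357 and 3.17 ± 0.325 RPKM (SD, n = 9 each), a log2 fold change of -0.14 that did not pass (limma adjusted p 0.0884) except without WT replicate 4 (limma adjusted p 0.0316).

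Hnrnpr (chromosome 4, 135866857 to 135896596, plus strand), a partner of the SMN protein that accompanies actin messenger RNA in axons, ranged from 10.7 to 12.7 RPKM in WT (median 11.9) and from 11.9 to 14.7 RPKM in R6/1 (median 13.8). In R6/1, 8 of 9 libraries were above the WT median, and the ranges overlapped. The means were 11.8 ± 0.575 and 13.6 ± 0.968 RPKM (SD, n = 9 each), or 0.20 ± 0.043 (SE) as a log2 fold change (limma adjusted p 0.000858). A copy elsewhere covers 88.6% of the Hnrnpr transcript. Hnrnpl, which binds CA repeats, measured 75.7 ± 4.44 and 74.5 ± 3.56 RPKM (SD, n = 9 each; limma adjusted p 0.676). Its paralogue Hnrnpll, a regulator of CD45 splicing in T cells, measured 19.9 ± 1.15 and 19.6 ± 1.31 RPKM (SD, n = 9 each; limma adjusted p 0.746).

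In the U group no transcript passed, though Hnrnpul2 did with library totals (log2 fold change 0.11, limma adjusted p 0.0105). Hnrnpu, a scaffold protein that binds chromatin and RNA in the nuclear matrix, ranged from 90.0 to 99.6 RPKM in WT (median 95.9) and from 79.6 to 99.2 RPKM in R6/1 (median 94.5). The ranges overlapped apart from R6/1 replicate 6, the lowest. The log2 fold change was -0.035 ± 0.038 (SE; 95% interval -0.11 to 0.045, limma adjusted p 0.473). Hnrnpul1 measured 32.1 ± 2.11 and 32.8 ± 1.67 RPKM (SD, n = 9 each; limma adjusted p 0.541), and Hnrnpul2 measured 46.9 ± 2.10 and 48.1 ± 2.54 RPKM (SD, n = 9 each; limma adjusted p 0.453).

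**Figure D4:**
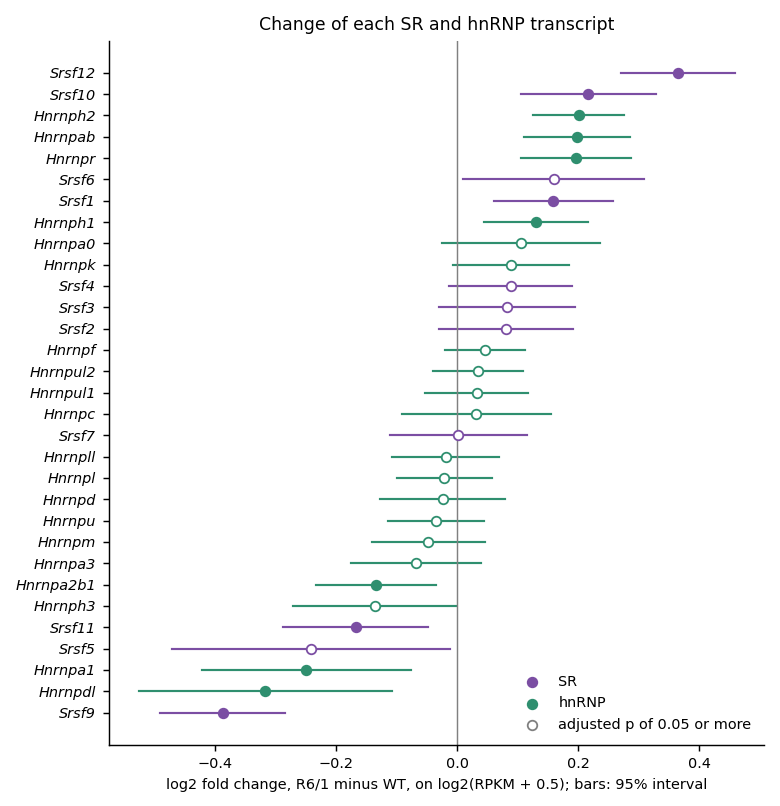
Log2 fold change (R6/1 minus WT) of each transcript on the log2(RPKM + 0.5) scale with its 95% interval, SR genes in purple and hnRNP genes in green; filled points passed the test. The changes run from -0.39 (Srsf9) to 0.36 (Srsf12), and no point exceeds 0.5 in size.

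Across the 31 transcripts the median log2 fold change was 0.032, against 0.0036 over all genes tested, and it was 0.082 for the SR genes and 0.0066 for the hnRNP genes. With library totals the median moved to 0.10, while that of all genes moved to 0.069. All 31 changes were under 0.5 in size, as were 91.2% of those of all tested genes. The 12 that were called had a median size of 0.20, against 0.27 for all called genes. In a simulation with 200 changed genes among 14446, the test recovered 10% of changes of 0.15 and 20% of changes of 0.2. The adjusted cut is stricter there than in the data, where 48.3% of genes passed. Changes of this size can be missed, but the simulated rates do not give the share missed here. Copies of at least 97% identity elsewhere in the genome cover more than 50% of the transcript for 10 of the 31 genes, including Hnrnpf (83.2%), Hnrnpk (66.3%), Hnrnpc (55.4%), Hnrnph2 (51.5%) and Srsf3 (50.5%) beside those named above, and less than 10% for 19. For 9 of the 31 an annotated gene overlaps on the opposite strand. RPKM adds up all transcripts of a gene, so productive and decaying forms cannot be told apart. An annotated decay transcript exists for 10 of the 31 genes (32.3%), against 15.0% of tested genes, and a retained-intron transcript for 12 (38.7%), against 31.8%.

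The 31 genes lie on 16 chromosomes. Of their starts, 1 lay in a lamin B1 domain of WT hippocampus, against 13.0% of 13979 matched tested genes, and 1 in a domain of R6/1 hippocampus, against 7.93%. In both lists it was Srsf11. Each genotype has a single list of domains (145 in WT and 166 in R6/1), so this placement has no replicate spread. The median distance from a start to the nearest WT domain was 4356 kb.

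Other genes of the splicing pathway were taken from 6 lists, 107 genes tested in all, of which 35 were higher (32.7%) and 14 lower (13.1%), against 24.8% and 23.5% of all genes tested. Called genes made up 45.8% of the lists, against 48.3% of all genes tested. With library totals 53 of the 107 were higher and 9 lower, while 5110 of all 14446 genes were higher and 2526 lower. The median log2 fold change was 0.068 for SR relatives, -0.054 for SR kinases and import factors, 0.12 for hnRNP relatives, -0.0014 for neuronal regulators, 0.076 for U1 and U2 proteins and 0.039 for Sm and U4/U6.U5 proteins, against 0.0036 over all genes tested. Relatives of SR proteins had 6 of 16 higher and 0 lower. The number lower was 1 with library weights, with a replicate block and in the authors' deposited table. It was also 1 without WT replicate 6, and without WT replicate 1, alone or together with R6/1 replicate 1. Tra2a and Tra2b, activators that bind exonic GAA-rich enhancers, rose from 24.5 ± 2.99 to 29.7 ± 3.83 RPKM (0.27 as log2 fold change; limma adjusted p 0.00631) and from 19.1 ± 1.23 to 21.5 ± 1.39 RPKM (0.17, limma adjusted p 0.00414; SD, n = 9 each). Srrm4, the neuronal regulator of microexons, rose from 7.74 ± 0.497 to 9.24 ± 0.674 RPKM (0.24 as log2 fold change; limma adjusted p 0.000322), and Acin1 rose from 18.3 ± 1.89 to 21.6 ± 2.39 RPKM (0.24 as log2 fold change; limma adjusted p 0.00622).

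Kinases and import factors of SR proteins divided, with 3 of 13 higher and 3 lower. Over all genes tested, 24.8% were higher and 23.5% lower. Srpk1, which phosphorylates the RS tail in the cytoplasm, fell from 15.2 ± 1.76 to 12.5 ± 1.35 RPKM (SD, n = 9 each; -0.27 as log2 fold change; limma adjusted p 0.00323). Its neuronal relative Srpk2 rose from 35.2 ± 2.04 to 37.8 ± 2.09 RPKM (0.10 as log2 fold change; limma adjusted p 0.0428). Dyrk1a, a kinase of several SR proteins, rose from 19.5 ± 0.999 to 23.5 ± 1.63 RPKM (0.26 as log2 fold change; limma adjusted p 3.59e-05). The nuclear kinase Clk2 fell from 2.72 ± 0.478 to 2.21 ± 0.288 RPKM (-0.24 as log2 fold change; limma adjusted p 0.0284), while Clk1 (31.1 ± 6.22 and 27.8 ± 2.80 RPKM, limma adjusted p 0.229) and Clk4 (24.2 ± 3.32 and 22.4 ± 1.91 RPKM, limma adjusted p 0.236) did not pass. Tnpo3, the importin of SR proteins, rose from 17.7 ± 0.833 to 19.7 ± 0.841 RPKM (0.15 as log2 fold change; limma adjusted p 0.00120).

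Relatives of hnRNPs under other symbols had 9 of 20 higher and 1 lower, where 24.8% of all genes tested were higher and 23.5% lower. With library totals 14 of the 20 were higher, as were 5110 of all 14446 genes tested. Without R6/1 replicate 3 the number higher was 6. The cold-inducible proteins Cirbp and Rbm3 rose from 48.1 ± 8.77 to 65.0 ± 13.1 RPKM (SD, n = 9 each; 0.42 as log2 fold change; limma adjusted p 0.0108) and from 29.3 ± 6.86 to 40.1 ± 9.51 RPKM (0.43, limma adjusted p 0.0307), with wide overlap between genotypes. Rbmx, an X-linked hnRNP G protein, fell from 13.8 ± 1.34 to 10.1 ± 1.47 RPKM (-0.44 as log2 fold change; limma adjusted p 0.000164). Ptbp2, the neuronal form of the polypyrimidine tract protein, rose from 35.0 ± 1.97 to 38.3 ± 3.45 RPKM (0.12 as log2 fold change; limma adjusted p 0.0407). Ptbp1 (10.5 ± 0.853 and 10.9 ± 0.517 RPKM, limma adjusted p 0.290) and Tardbp, which encodes TDP-43 (18.8 ± 1.28 and 20.3 ± 1.40 RPKM, limma adjusted p 0.0655), did not pass.

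Neuronal splicing regulators had 1 of 21 higher and 7 lower, where 24.8% of all tested genes were higher and 23.5% lower. The number higher was 3 without WT replicate 2 and 2 without WT replicate 1, WT replicate 8, WT replicate 9 or R6/1 replicate 6. Khdrbs3, a KH-domain protein that splices neurexin transcripts, fell from 75.7 ± 7.95 to 53.7 ± 3.68 RPKM (SD, n = 9 each; -0.49 as log2 fold change; limma adjusted p 8.92e-07), with no overlap. Celf6 rose from 7.27 ± 0.922 to 9.96 ± 0.610 RPKM (0.44 as log2 fold change; limma adjusted p 1.56e-05), also with no overlap. Qk, known above all as a regulator in oligodendrocytes and astrocytes, fell from 51.1 ± 3.89 to 38.7 ± 4.88 RPKM (-0.40 as log2 fold change; limma adjusted p 3.17e-05), its ranges overlapping only through R6/1 replicate 5 at 49.6 RPKM. The others that fell were Rbfox1, Rbfox3, Mbnl2, Celf2 and Celf5. The neuronal and glial markers given above were lower in the same libraries, and their part in these counts was not tested. With library totals this list had 7 of 21 higher and 6 lower, while 5110 of all 14446 genes tested were higher and 2526 lower.

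Core spliceosome proteins were described by 2 lists. Of 17 U1 and U2 proteins 8 were higher and 2 lower, and of 20 Sm and U4/U6.U5 proteins 8 were higher and 1 lower (2 without WT replicate 6), against 24.8% higher and 23.5% lower over all genes tested; no test compared the lists with other genes. U2af2, which reads the polypyrimidine tract, rose from 58.5 ± 1.48 to 72.2 ± 4.05 RPKM (SD, n = 9 each; 0.30 as log2 fold change; limma adjusted p 3.47e-07). Sf3b3 rose from 24.6 ± 1.60 to 31.5 ± 1.57 RPKM (0.35 as log2 fold change; limma adjusted p 5.49e-07) and Sf3b4 from 24.3 ± 2.04 to 30.6 ± 2.98 RPKM (0.32, limma adjusted p 0.000122), both subunits of the branch-point complex. Snrpb, an Sm core protein, rose from 44.0 ± 2.22 to 56.2 ± 5.52 RPKM (0.35 as log2 fold change; limma adjusted p 1.35e-05). Prpf8, at the catalytic centre, rose from 39.9 ± 2.11 to 49.7 ± 3.67 RPKM (0.31 as log2 fold change; limma adjusted p 7.58e-06), and the helicase Ddx23 rose from 22.0 ± 0.627 to 27.2 ± 0.882 RPKM (0.30 as log2 fold change; limma adjusted p 2.85e-08). Of these 6 genes, which were named for having the largest changes, Sf3b4 alone had overlapping ranges. In the whole lists, 2 of the 17 U1 and U2 genes and 6 of the 20 Sm and U4/U6.U5 genes had no overlap. Over all genes tested the share was 11.9%, and over the 6 lists it was 13 of 107 genes.

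**Figure D5:**
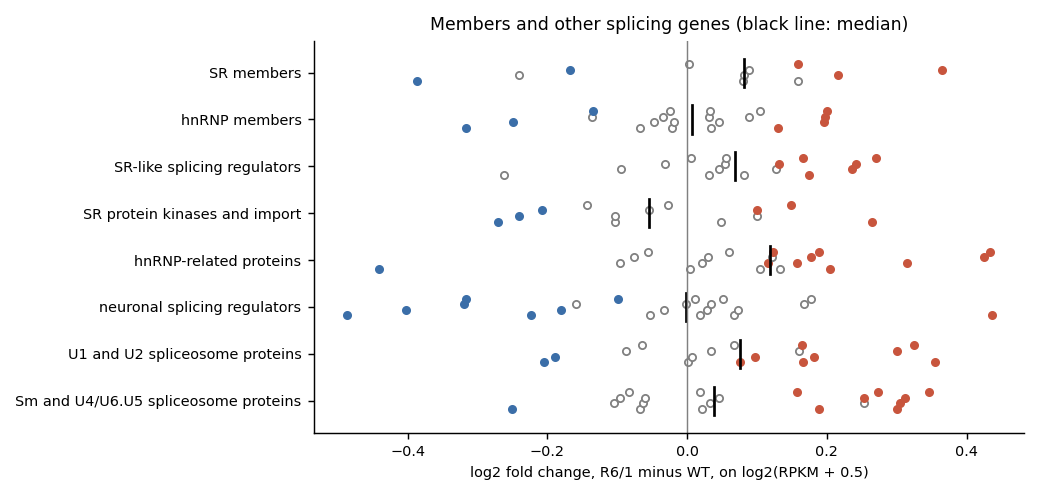
Log2 fold change (R6/1 minus WT) of the 11 SR and 20 hnRNP genes and of the genes in 6 further splicing lists (points; filled red higher, filled blue lower, open not called; black line, median of the list). In the fit shown, the neuronal regulators hold 7 of 21 genes called lower and the SR relatives hold 6 of 16 called higher with 0 lower. Over all genes tested, 24.8% were higher and 23.5% lower.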

How the data were processed

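RNA-seq libraries of 9 WT and 9 R6/1 hippocampi were analysed, made from messenger RNA with a stranded kit per the labels' protocols. The authors deposited RPKM values for 24508 gene symbols. TopHat, DESeq2 and the build mm9 (NCBIM37) are named, with no role, in the submitters' processing notes; the counter, its use of strand and the annotation are not given in the sources used here. The authors' deposited table holds, per the file headers, for each gene a mean normalized count (a signal), a test score, a log2 fold change and its p-value, raw and adjusted. It was read only for the log2 fold change and adjusted p-value it gives, and, with the RPKM steps, to recover reads. Each deposited value was multiplied by the gene's normalized signal over its mean RPKM. It was then divided by a step estimated for each library from its own values. After that, 99.9% of a library's nonzero values came out as whole reads, within a tolerance of 0.05 of a read. Totals were 12299434 to 16736544 reads on genes per library. The authors' domain lists give 1 score per lamin B1 domain, per the file headers and names; how their replicates were combined is not given in the sources used here.

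Each gene was tested with limma 3.58.1 (R 4.3.3; lmFit, eBayes with trend) on log2(RPKM + 0.5), two-sided, without covariates, p-values being adjusted by Benjamini-Hochberg and called under 0.05. Fold changes on this scale understate changes of low genes. The test was tested on simulated data (14446 genes, 50 changes of each size), where 56% of changes of 0.3 and 70% of changes of 0.4 were recovered and 2.5% of calls were unchanged genes. Far fewer genes changed there than passed in the data, so these rates do not carry over. Copies elsewhere were sought with BLAST 2.17.0 (at least 97% identity over 100 bases) in NCBIM37, from the longest coding transcript of each gene. Gene positions come from GENCODE on NCBIM37 and promoters from RefSeq on GRCm38.p6.

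The genes and lists were chosen with earlier results of these data known. Genes given in full were those that passed with no overlap between genotypes, up to 6 of the largest changes in each direction among those that passed, and Srsf6, Srsf1, Srsf2, Hnrnpa1, Hnrnpa2b1, Hnrnpk and Hnrnpu. Of each further list, the 3 called genes with the largest change and a mean of at least 1 RPKM are named, with Srpk1, Srpk2, Clk1, Clk4, Dyrk1a, Tnpo3, Tra2b, Ptbp1, Ptbp2, Tardbp and Htt; 1 further gene under this rule is not reported here. The alternatives tried were other pseudocounts, filters and scalings, a replicate block, limma without trend, voom on the recovered reads, library weights and leaving out each library. Chosen after seeing the data were the fits without replicate 1 of both genotypes and with Ttr as a covariate. The protein features planned were not computed, since no protein sequences were used here. ATAC-seq was not analysed here.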

Additional observations from a re-analysis of the deposited data

Results flagged for a closer look

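In 9 of 116 sets of 9 libraries, the highest or lowest value lay far from the others of its genotype (Dixon's criterion at 95%, a gap above 0.493 of the range), where chance gives about 5.8. Among the SR and hnRNP transcripts these were Hnrnpa3 in WT replicate 6 (46.9 RPKM, next 41.9), Hnrnpc in WT replicate 1 (96.2 RPKM, next 75.8) and Hnrnpdl in WT replicate 1 (32.7 RPKM, next 49.2). The same held for Hnrnpu in R6/1 replicate 6 (79.6 RPKM, next 90.3) and Hnrnpul1 in R6/1 replicate 6 (36.5 RPKM, next 33.4). Among the other splicing genes they were Tnpo3 in WT replicate 8 (19.6 RPKM, next 18.0), Rbmx in WT replicate 1 (10.7 RPKM, next 13.3), Qk in R6/1 replicate 5 (49.6 RPKM) and Sf3b3 in R6/1 replicate 1 (35.0 RPKM, next 32.4).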

How the results depend on the processing

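Srsf9, Srsf12, Srsf10, Srsf1, Hnrnph1, Hnrnph2, Hnrnpab and Hnrnpr kept their direction and stayed past the threshold in all 32 alternative fits, with log2 fold changes from -0.41 to -0.32 for Srsf9 and from 0.34 to 0.43 for Srsf12. Quantile normalization left 3 transcripts lower, while 50.5% of all genes tested were called. Scaling to library totals gave 15 higher, 1 lower, a median log2 fold change of 0.10 and 13 of 21 neuronal regulators called. Under that scaling 52.9% of all genes tested were called, 66.9% of those calls were higher, and the median over all genes was 0.069. The transcripts newly called higher with library totals were Hnrnpa0, Hnrnpf, Hnrnpk, Hnrnpul2, Srsf2, Srsf3, Srsf4 and Srsf6. At a threshold of 0.01, which 36.2% of all genes tested passed, 6 of the 31 transcripts were higher and 1 was lower. At that threshold 3 of 13 kinase and import genes and 5 of 20 relatives of hnRNPs were called. Leaving out 1 library at a time gave 7 to 9 higher and 4 to 6 lower, while 46.1% to 49.7% of all genes tested were called. No domain of R6/1 at or above the median score held a start (0 genes). Among transcripts not called, quantile normalization turned Hnrnpl (0.030) and Hnrnpu (0.021), and library totals turned Hnrnpa3 (0.0049), Hnrnpd (0.048), Hnrnpl (0.052), Hnrnpll (0.053), Hnrnpm (0.025) and Hnrnpu (0.038) to a log2 fold change above 0; library weights gave Srsf7 -0.019. With 1 library left out at a time, Srsf7 ranged from -0.021 to 0.030 and Hnrnpd from -0.049 to 0.00075, reaching above 0 without R6/1 replicate 5. The cause of these shifts was not tested.

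The labels give both genotypes the same replicate numbers. Deviations of same-numbered libraries correlated at -0.053 to 0.24, above 0.1 for 3 of 9 pairs, and 2 of 9 libraries correlated best with their own number, so the numbers were not taken to pair the animals. With the replicate number as a block, 8 of the 31 transcripts were higher and 5 lower, while 49.4% of all genes tested were called. In that fit Srsf6 (limma adjusted p 0.0334) and Srsf5 (limma adjusted p 0.0278) passed and Hnrnpa2b1 (limma adjusted p 0.0511) did not.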

Other observations

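Several of the genes share their start region with a neighbour on the opposite strand. Of 9 genes with such a partner starting within 1000 bases, 6 partners were tested. Gla, the alpha-galactosidase gene that starts 54 bases from Hnrnph2, was higher in R6/1 (log2 fold change 0.19, limma adjusted p 0.0269), as Hnrnph2 was. Cbx5, the gene of the heterochromatin protein HP1 alpha, starts 698 bases from Hnrnpa1 and was higher (log2 fold change 0.15, limma adjusted p 0.00277), whereas Hnrnpa1 was lower. Ttc9c, 68 bases from Hnrnpul2, was higher (log2 fold change 0.16, limma adjusted p 0.00133), and Hnrnpul2 was not called. Cbx3 beside Hnrnpa2b1 (log2 fold change 0.0086, limma adjusted p 0.890), Enoph1 beside Hnrnpdl (-0.048, limma adjusted p 0.480) and Lrrc40 beside Srsf11 (0.12, limma adjusted p 0.109) did not pass.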
